A study of Mus musculus with 18 samples.

Results

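Stromal cells of the perinatal bone marrow that were bound by antibodies to both CD140a and Sca-1 made up 1662 of the 28952 stromal cells deposited for E16.5, E18.5 and P0, out of 56201 cells in the whole series. The cells were chosen on their antibody tag counts. For each antibody and library the counts were put on a centered log-ratio (CLR) scale, which divides a cell's count by the geometric level of that antibody in the library (the exponential of the mean of ln(count + 1) over all its cells) and takes ln(ratio + 1), so that it never falls below 0. A cell was double-positive when it stood above 1 for both antibodies. Cells above 1 for CD140a alone (3882 cells), above 1 for Sca-1 alone (1256 cells) and at or below 1 for both (22152 cells, called neither) served for comparison. The antibody levels are therefore the rule and not a result. The transcripts of the same cells were read in separate libraries and did not enter the rule.

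The mice were labelled C57B6/J, with no genotype or treatment that distinguished the groups. Stroma was the CD45-Ter119- fraction of collagenase-digested marrow and bone, pooled from several mice at E16.5 (fetal), E18.5 (fetal, shortly before birth), P0 (newborn) and adulthood, with 1 library per stage, while the other libraries of the series held Lineage-Kit+ hematopoietic progenitors. Per the paper, fetal cells came from the skeleton without the head and skipped red cell lysis. Adult cells came from leg bones, pelvis and spine and were lysed. Because each stage was 1 library, stages are described without a test. The 3 perinatal libraries were the replicates of every comparison between antibody classes, and the p-values measure how far a difference between classes held across these libraries, which also differed in age.

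CD140a is the protein of Pdgfra, a receptor tyrosine kinase for platelet-derived growth factors that marks fibroblastic and other mesenchymal cells. Sca-1 is the GPI-anchored surface protein recognized by the Ly6A/E antibody and encoded by Ly6a. In the adult marrow the pair of markers is used to isolate mesenchymal progenitors, often called PaS cells, which lie around vessels, whereas Cxcl12-abundant reticular (CAR) cells carry more of the factors that hold hematopoietic stem cells. In many organs fibroblasts with Pi16, Dpp4 and Cd34 occupy the adventitia, the outer connective layer around larger vessels.

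The antibodies were read through short DNA tags that were amplified beside the cDNA with 1 additive primer. It is shown because the tag counts made with it chose the cells, although it is common to all antibodies and names none of them.
ADT additive primer: ccttggcacccgagaattcc

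Double-positive cells were 6.09% of stromal cells at E16.5 (501 of 8226, exact 95% interval 5.58 to 6.63%), 5.34% at E18.5 (355 of 6642) and 5.72% at P0 (806 of 14084). In the adult library the same rule gave 12.0% (752 of 6267), and CLR over all stromal libraries together gave 1603 of 6267. These intervals, and all intervals given for counts and shares, cover counting error only. The cut fell at low tag counts. The fewest CD140a tags that placed a cell inside were 10, 4 and 7 at E16.5, E18.5 and P0, and the fewest Sca-1 tags were 9, 11 and 29. In the adult library the fewest were 10 CD140a tags and 50 Sca-1 tags. At E18.5 a cell with 4 CD140a tags had a CLR of 1.08 and a cell with 3 tags one of 0.899, so 27 double-positive cells rested on a single tag there. Among CD140a+ cells 22.1%, 37.4% and 34.6% were Sca-1+ at the 3 stages, compared with 5.95%, 5.48% and 5.01% of CD140a- cells.

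The transcripts of the antigens followed the labels. Levels are given as CPM, the UMIs of a gene per 1000000 UMIs summed over the cells of a class. Pdgfra stood at 125, 157 and 200 CPM in double-positive cells at E16.5, E18.5 and P0, and at 26.0, 38.2 and 47.3 CPM in cells with neither antibody. The groups did not overlap, and double-positive cells were 4.80, 4.12 and 4.24 times as high within each library. In CD140a-only cells Pdgfra read 146, 167 and 179 CPM, which overlapped the double-positive range.

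Ly6a set the double-positive cells apart from the CD140a-only cells. It stood at 68.8, 238 and 388 CPM in double-positive cells, at 0.811, 1.84 and 5.76 CPM in CD140a-only cells, at 10.8, 83.4 and 119 CPM in Sca-1-only cells and at 0.512, 2.37 and 5.68 CPM with neither antibody. Within every perinatal library the double-positive cells were highest, and the values were ordered by age in all 4 classes. Since the cells were chosen on the proteins of these genes, their levels are a description and no test of either gene is given, although both were among the genes fitted below.

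**Figure D1:**
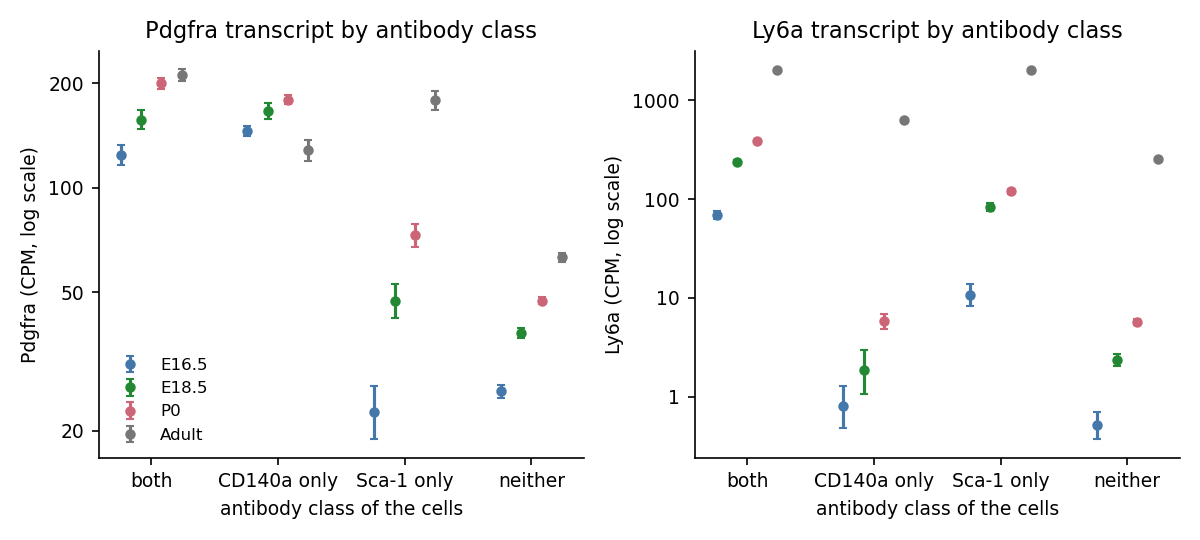
Pdgfra and Ly6a by antibody class and stage, in CPM on a log axis, with 1 point per library and exact 95% Poisson intervals. Ly6a was 68.8 to 388 CPM in perinatal double-positive cells and 0.811 to 5.76 CPM in CD140a-only cells, and the adult library stood at 2010 and 634 CPM.

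Counted per cell, Ly6a was detected in a minority of the perinatal double-positive cells. After thinning each cell to 5000 UMIs, 17.4% of double-positive cells at E16.5, 34.4% at E18.5 and 44.2% at P0 held a Ly6a UMI. The same shares were 0.461%, 0.855% and 2.27% in CD140a-only cells and 3.26%, 14.5% and 22.4% in Sca-1-only cells. With neither antibody they were 0.239%, 1.14% and 1.88%, and how much of this was free RNA was not tested. Unthinned, 25.9% of E16.5 double-positive cells held a Ly6a UMI at a median of 12729 UMIs per cell, and cells with neither antibody had a median of 13433. A cell without a Ly6a UMI may still carry the transcript below this depth.

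Ly6a tracked the antibody inside the positive class as well. Among cells of the clusters with F codes described below, Ly6a was higher at each of 5 steps of Sca-1 antibody level, at 5.87, 10.0, 68.4, 280 and 873 CPM at P0. The step from just below to just above the cut was 10.0 to 68.4 CPM at P0, 5.17 to 59.9 CPM at E18.5 and 0.884 to 4.69 CPM at E16.5. Cells just above the cut therefore had a small part of the Ly6a level of those far above it. Pdgfra showed a shallower slope with the CD140a antibody, from 128 CPM in the lowest step to 254 CPM in the highest at P0.

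**Figure D2:**
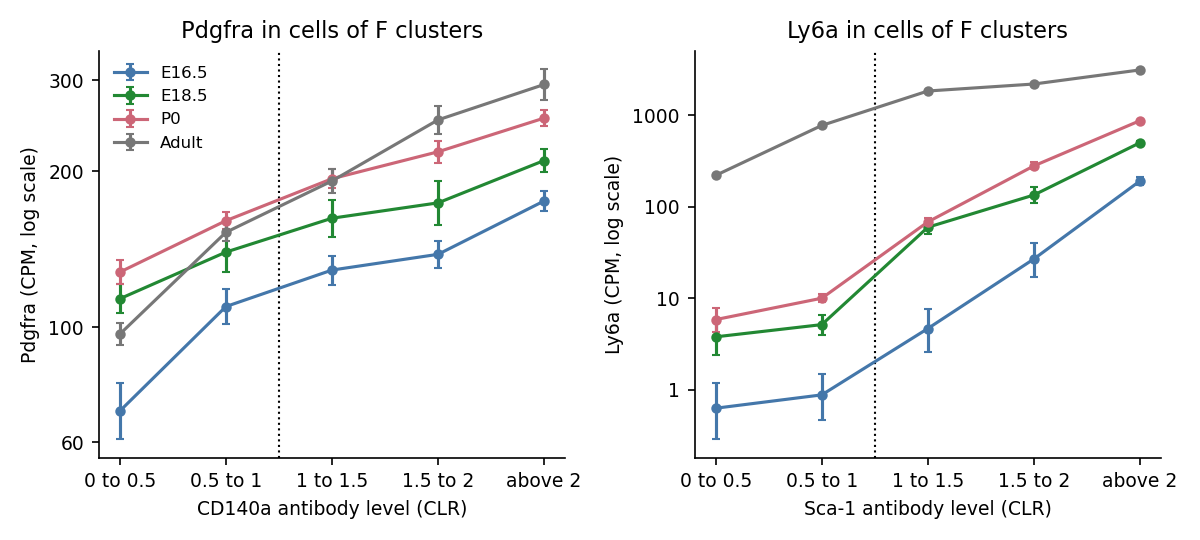
Antigen transcript (CPM, log axis) against antibody level (CLR) in cells of F clusters, 1 line per library, with exact 95% Poisson intervals; the dotted line is the cut at a CLR of 1. At E16.5 Ly6a was 0.884 CPM just below the cut and 192 CPM above a CLR of 2.

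Double-positive cells were close in depth to cells with neither antibody but carried more antibody tags. Their median was 12729, 16057 and 16279 UMIs per cell at the 3 stages, against 13433, 15723 and 13202 with neither antibody. The median total of all 29 antibodies was 140, 229 and 212 tags, against 31, 19 and 36, and it was 76, 70.5 and 72 in CD140a-only cells. This total includes the CD140a and Sca-1 tags that chose the cells. In double-positive cells their medians were 32, 19 and 21 tags for CD140a and 19, 45 and 84 for Sca-1. Other antibodies moved with the pair: cells above a CLR of 1 for CD31, an endothelial adhesion protein, were 34.3%, 29.0% and 36.5% of double-positive cells, 8.28%, 8.75% and 14.4% of CD140a-only cells and 6.31%, 4.16% and 7.36% of those with neither antibody. The CD31 transcript Pecam1 was lower than with neither antibody at E16.5 and E18.5 and higher at P0, at 1.14, 3.57 and 16.2 CPM in double-positive cells and 4.68, 7.86 and 9.60 CPM with neither antibody. CD73 antibody positivity was likewise higher (45.7%, 57.7% and 53.3% against 24.97%, 17.4% and 17.1%), while its transcript Nt5e was lower in the fit described below (log2 fold change -0.75, SE 0.187, adjusted p = 0.00651 by edgeR). Without P0 the Nt5e value was -0.54 and did not pass. The part of antibody load in the results below was not tested beyond the values given with them.

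In single cells, a cell barcode can be shared by chance or by carry-over. The perinatal stromal libraries shared 26 to 38 barcodes pairwise, of which 2 or 3 were double-positive in both.

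Most double-positive cells lay in clusters whose deposited codes begin with F. The markers of these clusters were not all those of fibroblasts. F3 at E16.5, F3i at E18.5 and F7 at P0 had Ly6a and Pi16 among their leading genes, whereas F4 at E16.5 was led by the pericyte gene Rgs5, F5 at E16.5 and P0 had the tendon gene Tnmd near the top, and F3i at P0 had the muscle genes Ckm and Acta1 there. F clusters held 81.2%, 83.7% and 80.5% of double-positive cells at the 3 stages, compared with 12.9%, 13.8% and 16.5% of cells with neither antibody. CD140a-only cells lay there in 93.8%, 87.0% and 79.9%, and Sca-1-only cells in 19.2%, 25% and 26.1%. At E16.5 cluster F3 alone held 213 of the 501 double-positive cells, at E18.5 F3i held 191 of 355 and F3ii 89, and at P0 F7 held 383 of 806 and F3i 163. Of all cells in these clusters, double-positive cells were 35.1% of F3 at E16.5, 25% of F3i and 50.3% of F3ii at E18.5, and 28.3% of F7 at P0.

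**Figure D3:**
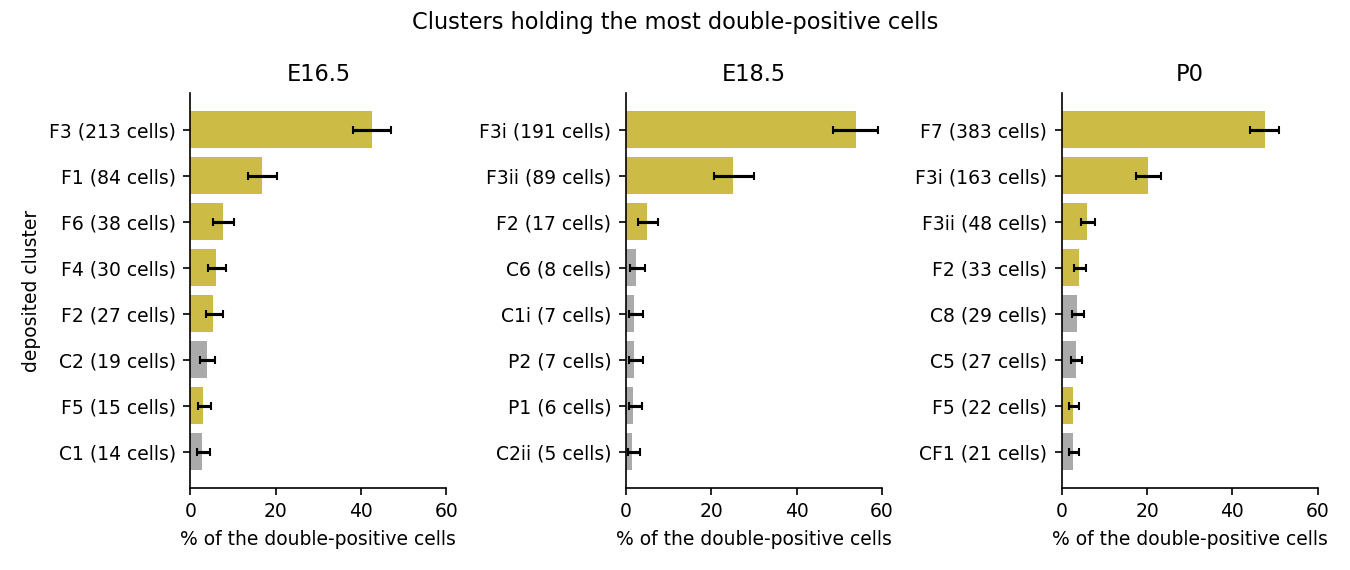
Share of the double-positive cells (% with exact 95% intervals) in the 8 deposited clusters that held most of them at each stage; yellow bars are F clusters and grey bars all others. F3 held 42.5% at E16.5, F3i 53.8% at E18.5 and F7 47.5% at P0.

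The double-positive cells were not of 1 kind, and their Ly6a transcript followed their cluster. At E16.5 double-positive cells of F3 held 149 CPM of Ly6a, those of F1 9.40 CPM and those of F6 20.4 CPM. Double-positive cells of F4 carried 588 CPM of Rgs5, a pericyte gene, while F1 and F2 had none and F3 and F6 at most 2.04 CPM. Double-positive cells of F2 carried 91.2 CPM of Runx2, the osteoblast transcription factor. At E18.5 Kitl (stem cell factor), Igf1 and Lepr, singled out after their values were seen, differed between the pair of main clusters. Kitl was 88.1 CPM in F3i and 512 CPM in F3ii, Igf1 was 859 CPM in F3i and 21.9 CPM in F3ii, and Lepr, a marker of adult CAR cells, was 9.06 and 63.0 CPM. At P0 double-positive cells of F7 led in Ly6a (767 CPM) and Pi16 (366 CPM). The 27 double-positive cells of C5 and the 29 of C8 at P0 held no Ly6a UMI, and their Col2a1, a cartilage collagen, stood at 39088 and 44877 CPM. The antibody label of these 56 cells was thus not matched by the Ly6a transcript. The clusters were built by the study from the transcripts of these same cells, so these contrasts are given without a test.

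The first comparison asked which genes distinguished double-positive cells from stromal cells with neither antibody. Counts were summed per class and library and fitted with edgeR's quasi-likelihood test with the library as a block, and p-values were adjusted by Benjamini-Hochberg over all 13781 genes tested. Of these, 25.9% (3567 genes) were higher and 24.1% (3316 genes) lower in double-positive cells at an adjusted p under 0.05. Since so many genes passed, the sizes of the differences are given beside most counts. Without the E18.5 library the calls fell from 6883 to 4581, and 18 adventitial genes were higher without any 1 of the libraries.

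Adventitial fibroblast genes had the largest median difference among the lists examined, the antigen genes apart. Of 20 genes, 18 were higher and 1 lower, with a median log2 fold change of 3.49 against 0.00 for all genes tested. Pi16, a secreted peptidase inhibitor of adventitial fibroblasts, stood at 31.9, 100 and 188 CPM in double-positive cells and at 0.244, 1.02 and 2.31 CPM with neither antibody. Double-positive cells were far above in every library (log2 fold change 6.41, SE 0.197, adjusted p = 2.65e-08, edgeR). Mfap5, a microfibril glycoprotein, read 561, 742 and 1229 CPM against 13.8, 34.5 and 58.7 CPM (4.58, SE 0.258). Cd55, which protects cells from complement, read 67.4, 120 and 130 CPM against 3.44, 4.70 and 7.03 CPM (4.25, SE 0.197). The groups did not overlap for either gene. Dpp4, Clec3b, Igfbp6, Tnxb, Dpt, Cd248 and Cd34 were higher by 3.29 to 4.54 on the log2 scale. The exception was Pcolce2, an enhancer of procollagen processing, at 65.4, 88.8 and 103 CPM against 268, 331 and 217 CPM, which was lower in all 3 libraries (-1.79, SE 0.263, adjusted p = 0.000242). Ackr3, a scavenging receptor for Cxcl12, did not pass the test (0.23, SE 0.0985).

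The 50 leading genes that the study listed for adult PaS cells showed the same direction at the perinatal stages. Of these, 49 were higher and 1, the matrix protease Mmp2, was lower, with a median log2 fold change of 2.13. The study's list was drawn from the adult cells of this series, and it contains Ly6a and Pdgfra, so it is not independent evidence. Of its leading adult CAR genes, 48 were tested, of which 30 were higher and 5 lower, with a median of 1.42.

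Among the other genes with the largest differences, Nov (a secreted matrix regulator of the CCN family) stood at 188, 288 and 445 CPM against 12.5, 19.1 and 36.04 CPM. Gap43, best known as a protein of growing axons, stood at 124, 96.1 and 132 CPM against 11.7, 5.60 and 10.6 CPM. The groups did not overlap for either gene, and the log2 fold changes were 3.68 (SE 0.322) and 3.56 (SE 0.254). Fst, the activin antagonist follistatin, was higher by 3.34 (SE 0.167), and Col5a3 by 3.67 (SE 0.232).

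Matrix genes of fibroblasts were higher as a group. Of 20 genes 18 were higher and 2 lower, with a median log2 fold change of 1.57. Dcn, the collagen-binding proteoglycan decorin, stood at 1723, 2903 and 2684 CPM against 295, 643 and 836 CPM, and Col3a1 at 4792, 9249 and 7580 CPM against 854, 1423 and 1954 CPM. Double-positive cells were above in each library (2.01, SE 0.183, and 2.26, SE 0.190). Sparc and Fn1, which cartilage and bone cells also make in quantity, were lower by 0.74 and 0.64 on the log2 scale.

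Cartilage genes were lower throughout, and genes of bone, muscle and nerve sheath were lower in part. All 15 chondrocyte genes and all 6 hypertrophic chondrocyte genes passed the test in that direction, with medians of -1.94 and -1.92. Col2a1 read 3806, 10183 and 10995 CPM in double-positive cells and 14724, 37128 and 32831 CPM with neither antibody (-1.94, SE 0.226, adjusted p = 5.16e-05). Sox9, the chondrocyte transcription factor, read 165, 188 and 216 CPM against 485, 686 and 540 CPM (-1.71, SE 0.185). Both genes separated the classes without overlap. Of 9 osteoblast genes 5 were lower, of 9 muscle genes 8 were lower and of 6 Schwann and neural crest genes 4 were lower, with none higher. The medians of these lists were -1.10, -1.90 and -1.45. The summed osteoblast level was 35.5, 36.3 and 131 CPM in double-positive cells and 132, 113 and 111 CPM with neither antibody. At P0, 88.1 of the 131 CPM in double-positive cells were Ibsp, a bone matrix protein, and 1187 of its 1236 UMIs came from 1 cell, without which Ibsp read 3.50 CPM. Spp1, the bone matrix protein osteopontin, which was in the niche factor list and not in the osteoblast list, was lower at -2.32 (SE 0.428), and its double-positive values were 30.04, 18.2 and 100 CPM against 209, 117 and 251 CPM. Of the Spp1 UMIs of double-positive cells 137 of 210 at E16.5 and 47 of 112 at E18.5 came from 1 cell each, without which the levels were 10.5 and 10.6 CPM.

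Niche factors, the secreted and surface proteins through which stroma supports hematopoietic cells, were mostly higher. Of 18 genes tested, 14 were higher and 3 lower, with a median log2 fold change of 1.33. Kitl stood at 77.7, 179 and 62.3 CPM in double-positive cells and at 6.45, 8.00 and 10.3 CPM with neither antibody (3.43, SE 0.358, adjusted p = 2.38e-05). Cxcl12, the chemokine that retains stem cells, stood at 109, 153 and 144 CPM against 18.3, 21.1 and 30.9 CPM (2.41, SE 0.242). For both genes double-positive cells were above in every library, and for Kitl the E18.5 library was the high one. Igf1, a growth factor, was higher by 2.99 (SE 0.255) and Ptn, the heparin-binding cytokine pleiotrophin, by 2.33 (SE 0.168). Wnt2, a Wnt ligand, stood at 14.7, 23.4 and 12.5 CPM against 0.244, 0.133 and 0.357 CPM (5.78, SE 0.383), a low gene in both classes. Csf1 and Vcam1 were higher by 1.95 and 2.07. Beside Spp1, Igf2 and Tgfb1 were lower, by 0.33 and 0.94 on the log2 scale, and Igf2 did not pass without E18.5 (-0.29). Il7 and Thpo were among the genes too low to test.

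Ligands of the PDGF pathway went both ways. The receptor Pdgfrb was higher by 0.61 (SE 0.145, adjusted p = 0.00514) and the ligand Pdgfd by 1.55 (SE 0.202), although Pdgfrb lost its call without E16.5 or without E18.5. The ligands Pdgfa (31.5, 30.02 and 24.7 CPM against 75.7, 44.2 and 56.1 CPM) and Pdgfc were lower, at -1.16 (SE 0.210) and -1.26 (SE 0.179). Pdgfb, a ligand made largely by endothelium, did not pass the test (-0.38, SE 0.538).

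Ly6a apart, the list of the Ly6 family of GPI-anchored proteins held 10 genes, of which 7 could be tested, 3 were higher and none was lower. Ly6c1 stood at 18.3, 49.98 and 117 CPM against 1.09, 2.32 and 5.52 CPM (4.20, SE 0.279), Ly6e at 83.3, 93.8 and 125 CPM against 22.0, 26.9 and 36.3 CPM (1.70, SE 0.207), and Ly6h at 87.6, 37.8 and 35.8 CPM against 13.1, 4.06 and 7.30 CPM (2.59, SE 0.191). All 3 were above in every library. Ly6a, Ly6c1 and their neighbours are closely similar in sequence, so how reads were split among them is uncertain.

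The remaining lists were mixed, and their counts stand beside 25.9% of all genes tested that were higher and 24.1% that were lower. Of 18 interferon-stimulated genes 13 were higher and none lower, with a median of 0.99, and Ifitm3 read 236, 469 and 552 CPM against 51.1, 69.8 and 139 CPM (2.18, SE 0.156). Without E18.5 or without P0 the interferon count was 9, and without the library block 2. Of 7 complement genes 5 were higher, with a median of 1.75, led by Serping1, the C1 inhibitor (3.27, SE 0.197). Adipogenic genes divided, with 5 of 11 higher, among them Lpl (2.55, SE 0.223) and the regulator Pparg (1.89, SE 0.341), and 2 lower, with a median of 0.91. Of the hedgehog and Wnt modulators 5 of 12 were higher and 3 lower, with a median of 0.13. Dkk2 (3.48, SE 0.205) and Sfrp2 (2.39, SE 0.1601) were among the higher. Wif1 (-1.74, SE 0.155) and the hedgehog receptor Ptch1 (-1.08, SE 0.0768) were among the lower. Of 12 cell cycle genes 4 were higher and none lower, with a median of 0.16, while Top2a and Mki67 did not pass. All 12 immediate early genes, which tissue dissociation can induce, were lower, with a median of -0.93. Within F clusters, compared below, 2 of the 12 were lower and none higher, with a median of -0.098, beside 6.99% of all genes lower there. Of 6 tendon genes 3 were higher and 2 lower, with a median of 0.15.

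Markers of other cells in the sort were measured beside these lists. Of the 12 endothelial genes, Tek (a receptor for angiopoietins) and Ramp2 were higher and none was lower. With the antibody cut at a CLR of 1.5 the count was 2 higher and 8 lower, and without P0 it was 2 higher and 2 lower. Tek read 19.6, 12.0 and 16.8 CPM against 1.55, 1.47 and 1.80 CPM (3.19, SE 0.251), whereas the defining genes Pecam1 and Cdh5 did not pass (-0.37, SE 0.392, and 0.36, SE 0.285). The summed level of the endothelial list was 160 to 331 CPM in double-positive cells and 101 to 159 CPM with neither antibody, higher in every library, with 1 of its genes at 0 in the E16.5 double-positive sum. At E16.5 Cdh5 (3.58 against 6.11 CPM), Cldn5 (2.15 against 6.21 CPM) and Egfl7 (12.4 against 16.7 CPM) were lower in double-positive cells, as were Pecam1 and Tie1. The higher sum there came from other genes of the list. At P0 Pecam1, Cdh5, Cldn5, Egfl7 and Tie1 were all higher. Of 10 pericyte genes 3 were higher and 2 lower, with a median of 0.07, beside 25.9% and 24.1% of all genes tested. The 15 blood genes summed to 11.4 to 14.3 CPM in double-positive cells and 4.14 to 13.0 CPM with neither antibody, with 2 to 4 of them at 0 in each double-positive sum, and of the 7 tested only Laptm5 passed, in the lower direction. The pan-leukocyte gene Ptprc had 1 UMI in the E16.5 double-positive cells and none at E18.5 or P0, where a count of 0 allows up to 3 UMIs. The paper reports taking blood cells out of its stromal objects, so low blood gene levels may precede the antibody rule.

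**Figure D4:**
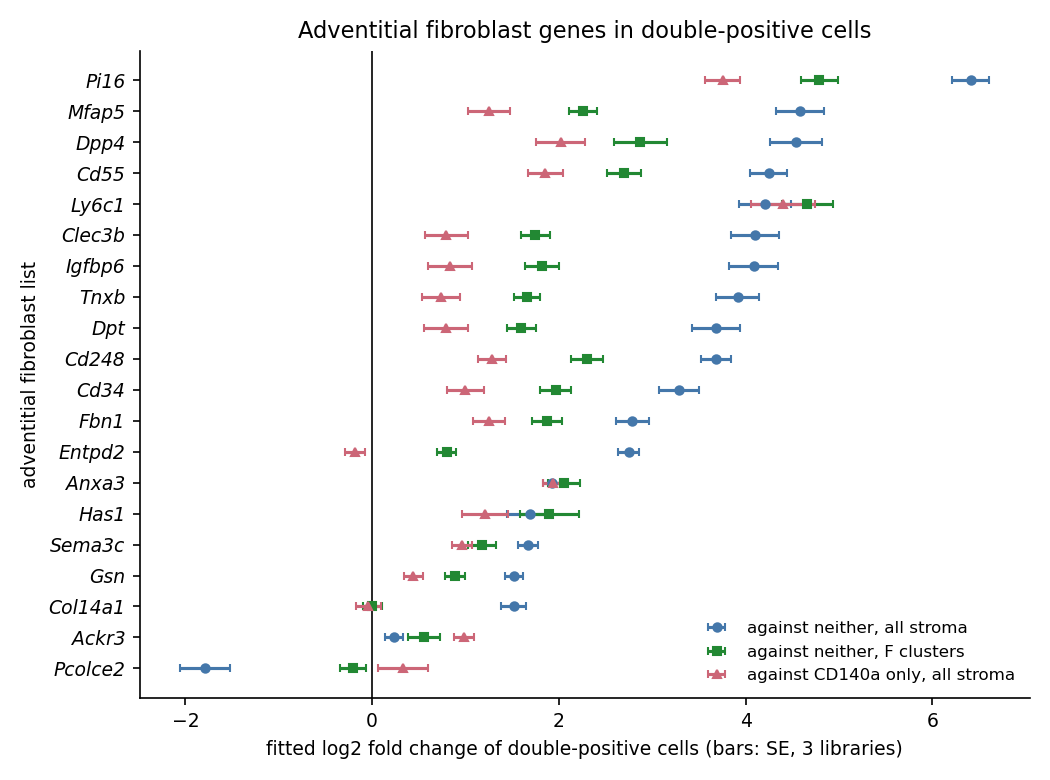
Fitted log2 fold changes (points, with SE bars over 3 libraries) of 20 adventitial fibroblast genes in double-positive cells against neither antibody in all stroma, against neither antibody within F clusters, and against CD140a only. Pi16 was highest against neither antibody (6.41), and Pcolce2 was below 0 (-1.79) in all stroma.

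Because F clusters held most double-positive cells but a small share of the cells with neither antibody, the comparison was repeated within F clusters. There 13049 genes were tested, of which 7.87% (1027 genes) were higher and 6.99% (912 genes) lower in double-positive cells than in cells with neither antibody. Of the 20 adventitial genes 18 were higher and none lower, with a median of 1.84, and Pcolce2 did not pass the test there (-0.20, SE 0.140). Pi16 read 38.8, 123 and 227 CPM against 1.28, 5.79 and 7.06 CPM (4.79, SE 0.198, adjusted p = 4.63e-08), and Gap43 read 148, 116 and 161 CPM against 16.9, 25.3 and 12.7 CPM (2.99, SE 0.266). The groups did not overlap for either gene. Of the 20 matrix genes 6 were higher and none lower, with a median of 0.02 against -0.01 for all genes tested. The calls within F clusters fell from 1939 to 770 without E18.5 and to 720 without P0, where 17 adventitial genes were still higher in each case.

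Tendon and bone genes were lower within F clusters. All 6 tendon genes were lower, including Scx, the tendon transcription factor, at 55.7, 19.9 and 28.7 CPM against 165, 147 and 134 CPM (-2.19, SE 0.183), and Tnmd (tenomodulin) at 187, 113 and 189 CPM against 386, 582 and 791 CPM (-1.84, SE 0.185). Of 8 osteoblast genes 7 were lower, with Alpl, the alkaline phosphatase of bone-forming cells, at -2.09 (SE 0.287). Spp1, which was in the niche factor list, stood at -3.46 (SE 0.363). For these genes every double-positive value lay below every value with neither antibody. Niche factors divided, with 6 of 18 higher and 4 lower. Kitl was higher by 2.24 (SE 0.213), at 93.9, 211 and 60.4 CPM against 28.7, 22.8 and 16.9 CPM, and Cxcl12 by 0.65 (SE 0.158), where 132, 177 and 157 CPM stood against 129, 81.8 and 86.3 CPM. The Cxcl12 values were close at E16.5, and the call was lost without E18.5 (0.42) or without P0 (0.56) and with the antibody cut at 0.75 or 1.5 (0.61 and 0.20). Tek was higher by 4.00 (SE 0.270). Of 12 cell cycle genes none passed the test in either direction.

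The second comparison asked what Sca-1 added among CD140a+ cells. CD140a tags were not matched, with medians of 32, 19 and 21 in double-positive and 28, 11 and 13 in CD140a-only cells. The differences can therefore not be assigned to Sca-1 alone. Of 13781 genes, 1.94% (268 genes) were higher and 1.23% (170 genes) lower in double-positive than in CD140a-only cells. The matrix, chondrocyte, immediate early and cell cycle lists had no member past the threshold, with medians of -0.02, 0.13, 0.17 and 0.11. Of the adventitial list 13 of 20 were higher and none lower, with a median of 0.99. Of the study's adult PaS list, which contains Ly6a and Pdgfra, 15 of 50 were higher and 2 lower. Pi16 stood at 31.9, 100 and 188 CPM in double-positive and 2.12, 7.80 and 14.1 CPM in CD140a-only cells (3.75, SE 0.187, adjusted p = 4.38e-06). Ly6c1 stood at 18.3, 49.98 and 117 CPM against 2.07, 1.19 and 4.15 CPM (4.40, SE 0.340). Neither gene overlapped between the classes. Dpp4 was higher by 2.02 (SE 0.264), Cd55 by 1.85 (SE 0.187), Cd248 by 1.28 (SE 0.151) and Gap43 by 2.47 (SE 0.259).

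Niche factors were little different between the CD140a+ classes. Only Csf1 (0.60, SE 0.105, adjusted p = 0.0138) and Wnt2 (2.48, SE 0.348, adjusted p = 0.00446) were higher among 18. The Csf1 call was lost without E18.5 (0.68) and without P0 (0.46). Cxcl12 read 109, 153 and 144 CPM in double-positive and 143, 149 and 136 CPM in CD140a-only cells, which overlapped (-0.13, SE 0.233). Igf1 (-0.20, SE 0.237) and Ptn (0.12, SE 0.1602) did not pass either. Kitl read 77.7, 179 and 62.3 CPM against 52.5, 65.7 and 33.2 CPM, above in each library but short of the threshold (0.98, SE 0.338, adjusted p = 0.172).

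Of 6 tendon genes 2 were lower in double-positive than in CD140a-only cells, and of 9 osteoblast genes 2, with none higher and medians of -0.58 and -0.64. Tnmd stood at 155, 108 and 162 CPM against 324, 351 and 442 CPM (-1.40, SE 0.225), Alpl at 6.87, 10.4 and 9.62 CPM against 22.1, 43.8 and 33.5 CPM (-1.85, SE 0.184), and Runx2 at 15.9, 15.1 and 20.7 CPM against 29.5, 40.6 and 32.8 CPM (-0.94, SE 0.146). The groups did not overlap for any of the 3. Scx was lower by 1.36 on the log2 scale. Without the E18.5 library no gene of either list passed the test, and Tnmd, Scx, Alpl and Runx2 then read -1.25, -1.20, -1.74 and -0.76. Of the vascular genes Tek (2.45, SE 0.273), the junction protein gene Esam (1.37, SE 0.293) and Rgs5 (1.56, SE 0.264) were higher. The capillary gene Gpihbp1 was also higher, and lost its call without E18.5 or without P0. Esam lost its call without any 1 of the libraries, and Rgs5 without E16.5 or without E18.5. Without CD31 antibody-positive cells, an alternative chosen after the data were seen, the value was -0.097 for Esam and 0.12 for Rgs5, and neither passed. That filter takes out cells by an endothelial protein, so for an endothelial gene such as Esam it is no test.

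This second comparison was the least secure when a library was left out or antibody totals were restricted. With the antibody cut at a CLR of 1.5 it kept 364 of its 438 calls, whereas the third comparison below kept 119 of 5137. The 438 calls became 31 without the E18.5 library, 146 without P0 and 362 without E16.5. Of the 13 adventitial genes called higher, 7, 8 and 12 were also called in turn. Restricting all classes to cells between the 10th and 90th percentile of the antibody total left 285, 111 and 229 double-positive cells, and 1 gene and no adventitial gene passed the test. Since the total includes the CD140a and Sca-1 tags, the restriction also acted on the values that chose the cells.

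The third comparison asked what CD140a added among Sca-1+ cells, and here lists of fibroblasts, cartilage and endothelium differed. Sca-1-only cells stood close to the cut, with medians of 10, 13 and 34 Sca-1 tags where the fewest inside were 9, 11 and 29. The medians of double-positive cells were 19, 45 and 84 tags. Of the 13781 genes, 19.1% (2629 genes) were higher and 18.2% (2508 genes) lower in double-positive than in Sca-1-only cells. Adventitial genes were higher in 18 of 20 and lower in 1 (median 1.93), and the study's adult PaS genes, Ly6a and Pdgfra among them, were higher in 49 of 50. All 15 chondrocyte genes (median -1.78) and 10 of 12 endothelial genes (median -2.19) were lower. The endothelial count was 1 lower and 2 higher of 11 tested within the middle antibody totals, and 1 lower and 4 higher of 9 tested without cells above a CLR of 1 for CD31, an alternative chosen after the data were seen. CD31 is the protein of Pecam1, a gene of the list, and 20.3%, 20.2% and 31.1% of Sca-1-only cells were above that level. Leaving them out removes endothelial cells by rule, so values after this filter do not test the endothelial difference. Igf1 stood at 556, 478 and 719 CPM against 47.8, 114 and 170 CPM (2.41, SE 0.259), and Crabp1, a retinoic acid binding protein, at 219, 117 and 67.9 CPM against 23.6, 10.8 and 21.7 CPM (2.64, SE 0.361). The groups did not overlap for either gene. Pecam1 read 1.14, 3.57 and 16.2 CPM against 16.0, 41.1 and 79.9 CPM (-2.73, SE 0.388) and Cdh5, the endothelial cadherin, 3.58, 10.9 and 21.6 CPM against 25.7, 39.3 and 79.0 CPM (-2.05, SE 0.285). Double-positive cells were lower within each library, with an overlap across libraries for Pecam1 alone. Without the cells above a CLR of 1 for CD31, Cdh5 stood at 2.62 in the opposite direction (adjusted p = 0.0329), and within the middle antibody totals it read -0.88 and did not pass. Without E18.5 the calls of this comparison fell from 5137 to 2729, and with the antibody cut at a CLR of 1.5 they fell to 119, with 1 adventitial gene higher. Tek and Ramp2 were the exceptions among endothelial genes, higher by 0.95 (SE 0.269, adjusted p = 0.0173) and 0.64 (SE 0.135, adjusted p = 0.0038). Without E18.5 neither passed, and Tek also did not pass without E16.5, where its value was 0.48.

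Between stages, few genes of the double-positive cells differed at least 4-fold among those at 100 CPM or more in the higher stage. From E16.5 to E18.5, 0.13% (2 of 1544 genes) were higher at the later stage. These were Ifitm1, an interferon-induced membrane protein that was the leading gene of the E18.5 cluster F3ii with its 25.1% of the double-positive cells, at 35.9 and 198 CPM, and Fabp4, a fatty acid carrier of adipocytes and capillary endothelium, at 20.5 and 109 CPM. Of the E18.5 Fabp4 UMIs 237 of 674 came from 1 cell, without which the level was 71.1 CPM, and in F clusters Fabp4 read 16.9, 24.3 and 22.3 CPM at the 3 stages. From E16.5 to P0, 0.714% (11 of 1541) were higher at P0, among them Fabp4 (234 CPM at P0), Ecm1 (12.4 and 138 CPM), Prg4, Ly6c1, Pi16 and Ly6a. From E18.5 to P0, 0.133% (2 of 1509) were higher at P0, Spp1 (18.2 and 100 CPM) and Hist1h1c (27.4 and 142 CPM). In F clusters Spp1 read 17.2 and 27.0 CPM at these stages, and Prg4 11.4 CPM at E16.5 and 73.6 CPM at P0. No gene was higher at the earlier stage in any of the 3 pairs over all double-positive cells. Within F clusters Hist1h1b (221 and 48.0 CPM) and Pclaf (179 and 40.7 CPM) were higher at E16.5 than at P0, and Cxcl14 (259 and 56.5 CPM) was higher at E18.5 than at P0. Every gene named here as higher at a later stage was also higher at that stage in cells with neither antibody. Ly6a, Pi16 and Ly6c1 had the same order there, and Pi16 went from 0.244 to 1.02 and 2.31 CPM. From E16.5 to P0, cells with neither antibody went from 29.4 to 683 CPM of Prg4 and from 2.33 to 22.2 CPM of Ecm1. From E18.5 to P0 they went from 117 to 251 CPM of Spp1 and from 53.6 to 178 CPM of Hist1h1c. With 1 library a stage, age and library cannot be told apart.

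The adult library extended some of these orders and broke others. Its bones and its red cell lysis also differed from those of the fetal stages, so age and preparation cannot be told apart. Ly6a reached 2010 CPM, Ly6c1 1277 CPM, Ecm1 1142 CPM and Gsn, the actin-severing protein gelsolin, 9112 CPM in adult double-positive cells, from 254, 466 and 626 CPM of Gsn at the perinatal stages. Markers of other cells also stood higher in adult double-positive cells, with 485 CPM summed over the blood genes, against 155 CPM in adult cells with neither antibody, and 748 CPM over the endothelial genes, against 408 CPM. Their part in the adult levels was not tested. Pi16 was 244 CPM beside 188 CPM at P0. Ptn was 161 CPM in the adult and 1205 CPM at P0, and Igf2, the fetal growth factor, was 0.248 CPM in the adult and 121 CPM at P0. Kitl was 46.9 CPM in adult double-positive cells and 54.6 CPM in adult cells with neither antibody, whereas perinatal double-positive cells stood above the rest. Adult Ly6a was also 252 CPM with neither antibody, so the adult contrast was 7.97-fold where the perinatal ones were 134, 101 and 68.3-fold. The cells with neither antibody were unlike in makeup, with 52.1% in F clusters in the adult and 12.9%, 13.8% and 16.5% at the perinatal stages.

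**Figure D5:**
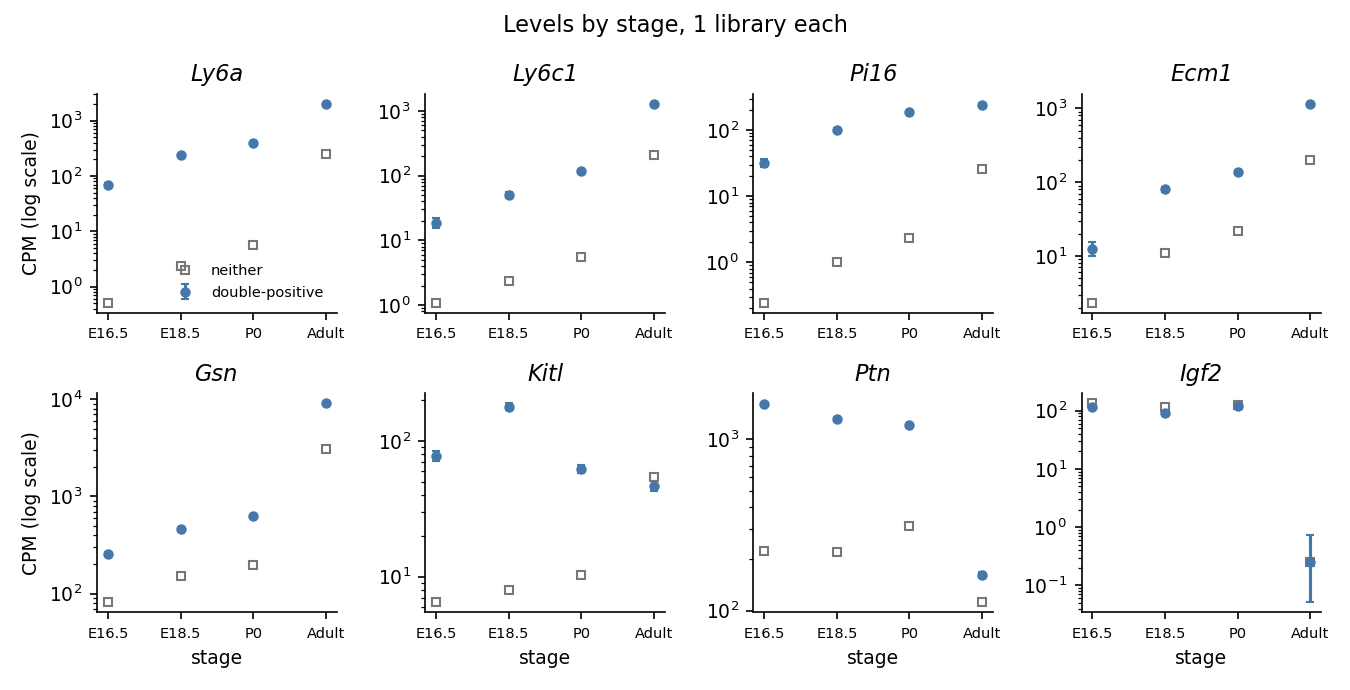
Levels of 8 genes (CPM, log axis) in double-positive cells (filled, with exact 95% Poisson intervals) and in cells with neither antibody (open squares), 1 library per stage. Ly6a rose from 68.8 CPM at E16.5 to 2010 CPM in the adult, while Igf2 was 113 CPM at E16.5 and 0.248 CPM in the adult.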

How the data were processed

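The authors deposited raw UMI counts per gene and raw antibody tag counts per cell. Per the submitters' processing notes they used Cell Ranger 3.1.0, R 4.0 and Seurat 3.1.5 with the mm10 build, and the tool for the antibody tags is not given in the sources used here. The deposited cells had already passed the authors' filters on UMIs, mitochondrial share and the highest gene and UMI numbers, the last to remove doublets, and no doublet caller was run here. The paper also reports taking contaminating blood cells out of its processed stromal objects. The deposited table of cells gives each cell's library, stage and cluster, and its counts of UMIs and genes were not used for tests. The stromal libraries held 116922277, 112468283 and 194892476 UMIs at E16.5, E18.5 and P0, and 91868751 in the adult. No row lacked a gene name.

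Antibody counts were put on the CLR scale per antibody and library. UMIs were summed over 12 combinations of class and library, filtered by edgeR's filterByExpr, scaled by TMM and fitted with edgeR 4.0.16 in R 4.3.3 on all 4 classes, with the library as a block. An adjusted p under 0.05 was a call. F clusters were those whose deposited code is F and a number. Shares carry exact Clopper-Pearson 95% intervals and CPM exact Poisson 95% intervals. The procedure was run on simulated sums of 13781 genes, with 100 changed 2-fold and 100 changed 4-fold. It called 91% and 100% of these and 12 unchanged genes. The simulation had no library effect and few changed genes, unlike the data, so it does not gauge the calls made here. Genes were named from the lists or as the 15 largest log2 fold changes each way among called genes at 100 CPM or more in the higher class with the same direction in all 3 libraries, and between stages as those at least 4-fold apart with at least 50 counts in the higher stage. Mitochondrial and ribosomal protein genes and Gm42418 were left out of the naming. The members and lists were chosen with earlier results of these data known.

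Alternatives were other CLR cuts, CLR over all stromal libraries together, cell filters, thinning to 2000 UMIs per cell, DESeq2 1.42.0, other scaling and filtering, no block, leaving out each library, adding the adult library and fitting only the classes compared. Libraries of hematopoietic progenitors were not used. A result for a listed gene that would otherwise be named is not reported here.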

Additional observations from a re-analysis of the deposited data

Results flagged for a closer look

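Only genes of the lists were searched for levels that lay above those of cells with neither antibody in one library and below them in another. Fabp4, Gpihbp1 and Ibsp did so at least 2-fold each way, with intervals that lay apart each way and more than 3 UMIs in every sum. The difference between libraries was not tested for any of them. Fabp4 ranged from 0.370 times the level with neither antibody at E16.5 to 2.31 times at P0. Gpihbp1, a lipase-binding protein of capillary endothelium, ranged from 0.487 to 2.43 times at the same stages. Ibsp, a bone matrix protein, ranged from 0.0417 times at E18.5 to 2.47 times at P0, and 1187 of the 1236 Ibsp UMIs of the P0 double-positive cells (96.0%) came from 1 cell. Krt8, an epithelial keratin, met the 2-fold limits but had no UMI in the E18.5 double-positive cells. The Krt8 level in double-positive cells was 4.78 times that with neither antibody at E16.5, where 64 of 68 UMIs came from 1 cell, and 0.380 times at P0. Dmp1, a bone matrix protein, had no UMI at E16.5 and E18.5 and stood at 3.28 times at P0.

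The CD127 antibody, against the interleukin-7 receptor and not used in the comparisons, left at least 1 tag on 8.78% of double-positive cells at E16.5, 17.7% at E18.5 and 24.4% at P0, and on 0.446%, 0.483% and 1.27% of cells with neither antibody. Its transcript Il7r had no UMI in double-positive cells of any of the 3 libraries. Double-positive cells with a CD127 tag had median Sca-1 counts of 322, 682 and 848 tags and 331, 646 and 912 CPM of Ly6a, and those without had 17, 33 and 56 tags and 44.3, 146 and 208 CPM. Their median antibody totals were 536, 1152 and 1101 tags, against 133, 174 and 175.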

How the results depend on the processing

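The share of double-positive cells at E16.5, E18.5 and P0 depended on the cut. It was 11.7, 9.77 and 14.2% at a CLR of 0.75, 2.72, 2.89 and 2.53% at 1.5, 3.14, 3.101 and 9.12% with CLR over all stromal libraries, 4.25, 2.05 and 2.03% within the middle antibody totals, 4.40, 4.06 and 4.07% without CD31 antibody-positive cells (chosen after seeing the data), and 6.55% at P0 among cells with at least 2000 UMIs.

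Ly6a CPM at the same stages was 38.2, 133 and 181 with the lower cut and 98.5, 330 and 640 with the higher one. Pdgfra was 137 (E18.5) and 153 (P0) with the lower cut and 214 (P0) with the higher.

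The share in F clusters became 76.4% (E18.5) and 61.0% (P0) with the lower cut, and 85.7% (E16.5) and 89.6% (P0) with the higher. Within F clusters, 18 genes differed at least 4-fold between E16.5 and P0, in place of 11.

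Calls against neither antibody (6883) were 3092 with thinned cells, which also tests fewer genes, 2828 without the replicate block, here the library, and 4581 to 5632 when leaving out a library. Against CD140a only (438) they were 89 and 869 with the lower and higher cut, 26 with CLR over all libraries, 1 within the middle antibody totals, 230 thinned, 679 without CD31 antibody-positive cells, 662 by DESeq2, 2 without the block, 93 with the adult library, 846 with only the classes compared and 31 to 362 when leaving out a library. Against Sca-1 only (5137) they were 119 with the higher cut, 1123 with CLR over all libraries, 1566 thinned, 1797 without the block, 2120 with the adult library and 2729 to 4039 when leaving out a library. Within F clusters (1939) they were 1289 within the middle antibody totals, 868 thinned, 221 without the block and 720 to 2136 when leaving out a library. The share of calls that were higher against CD140a only went from 61.2% to 77.5% with the lower cut and 81.7% with the adult library. Classes were paired by library through that block, and no replicate number in the labels pairs a stromal library with another.

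Values that changed sign were Pclaf against neither antibody with the adult library (-0.20), Alpl against neither antibody with the lower cut (0.082), Esam against CD140a only without CD31 antibody-positive cells (-0.097), Gpihbp1 against CD140a only within the middle antibody totals (-0.72), Cdh5 (2.62) and Cd36 (0.33) against Sca-1 only without CD31 antibody-positive cells, and Cxcl12 against Sca-1 only with the higher cut (-0.037). The causes of these changes were not tested. Esam and Cdh5 are endothelial genes, on which a filter by the CD31 protein acts by its own rule. With 1 library per stage, stages carry no replicate error, and genes near 0 UMIs are limited by depth.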
